A study of Mus musculus with 12 samples.

Results

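Pdgfra/GFP+ cells of the mouse forebrain and of the spinal cord were compared at embryonic day E13.5, to ask what separates the 2 regions before most oligodendrocyte precursor cells have formed. The comparison used the 6 E13.5 libraries, 3 from brain and 3 from spinal cord, out of 12 libraries in the series. The other 6 are the same regions at postnatal day P7, which enter only where a region difference was followed with age. All 6 E13.5 libraries came from the Pdgfra-H2BGFP knock-in strain, heterozygous on a C57BL/6NJ background with both sexes used, and no treatment was given. In this strain a green fluorescent protein fused to a histone is made from the Pdgfra gene. The protein is stable and can remain in a cell, or in its progeny, after Pdgfra itself is no longer transcribed. The labels call the anterior tissue brain, and the study's methods give it as forebrain. Tissue was dissociated mechanically, GFP+ cells were sorted, and each library held the cells of several pooled animals. The methods give the 3 replicates of a group as separate pools, and the p-values below measure the spread between pools. Total RNA libraries were made with a kit that marks strand.

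Pdgfra encodes the alpha receptor for platelet-derived growth factor. In the central nervous system it is the classical marker of oligodendrocyte precursor cells, but in the embryo it is also made by mesenchyme, including the cells that form the meninges and the tissue around blood vessels. Neural progenitors carry their position along the head-to-tail axis as combinations of homeodomain transcription factors, with Otx, Emx, Dlx and Nkx2 genes in the forebrain and Hox genes in the hindbrain and spinal cord. Across the dorsal-to-ventral axis, Sonic hedgehog from the ventral midline and BMP and Wnt proteins from the dorsal midline set further domains. Mesenchyme of the head comes largely from the neural crest, whereas mesenchyme beside the spinal cord comes from the somites.

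Values are CPM, read counts scaled for library size, and a gene was tested when it reached 0.7 CPM in at least 3 of the 6 libraries. Differences are brain minus spinal cord on the log2(CPM + 0.5) scale, given with a standard error (SE), so that positive values are higher in brain. At low levels this scale makes a change look smaller than it is. Calls required an adjusted p (limma, Benjamini-Hochberg) under 0.05 together with a difference over 2-fold. Reads per library ranged from 12566345 to 19903022, and between 21673 and 25887 genes had reads. Spinal cord replicate 3 stood apart, because 41.0% of its reads were in protein-coding genes, where the other 5 libraries had 82.4% to 88.1% there. Gm42418, a noncoding gene that lies over ribosomal RNA sequence, held 31.1% of its reads (95% Wilson interval 31.09% to 31.14%, counting error only) and 0.0881% to 0.518% elsewhere. Over 4261 well-covered genes the SD of the log2 ratio was 0.204 between spinal cord replicates 1 and 2, and 0.730 and 0.711 between each of them and replicate 3. Brain pairs lay between 0.261 and 0.339. Each result was therefore computed again without spinal cord replicate 3.

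Of 17530 genes tested, 1501 (8.56%) were called, 606 (3.46%) higher in brain and 895 (5.11%) higher in spinal cord. The median difference over all tested genes was 0.05. When spinal cord replicate 3 was left out, 1330 of the 1501 calls remained in the same direction (7.59% of tested genes), while 171 were lost and 437 other genes were called. A difference over 8-fold was seen for 122 called genes, 43 higher in brain and 79 in spinal cord, and all 122 were called without that library too. In 1500 of the 1501 called genes the 3 brain values did not overlap the 3 spinal cord values, which was so for 38.3% of tested genes. Protein-coding genes made up 1289 of the calls.

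**Figure D1:**
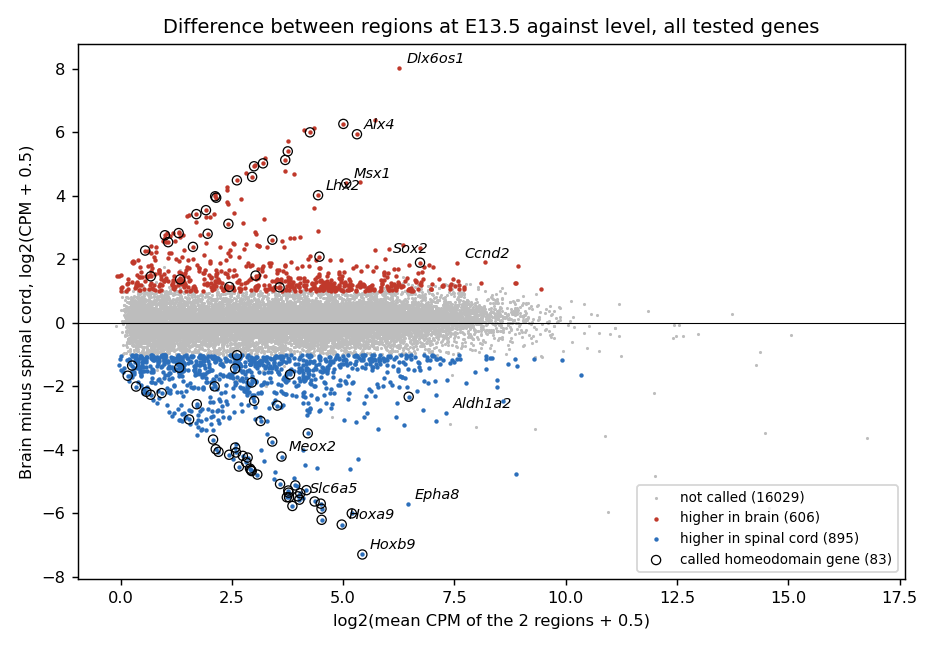
Difference between brain and spinal cord at E13.5 (vertical axis, log2(CPM + 0.5)) against the mean level of the 2 regions (horizontal axis, log2(mean CPM + 0.5)) for the 17530 tested genes. Each point is a gene, red points are the 606 called higher in brain, blue points the 895 called higher in spinal cord, and circles the 83 called homeodomain genes, which lie mostly at the outer edges in both directions.

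The marker of the sort, Pdgfra (ENSMUSG00000029231, chr5:75152292-75198215), was measured at 529, 748 and 787 CPM in brain and 458, 535 and 341 CPM in spinal cord. The 2 sets of values overlapped, and the difference of 0.63 ± 0.25 did not pass the test (limma adjusted p = 0.117). Its mean was 688 ± 139 CPM (SD, n = 3) in brain and 444 ± 97.9 CPM in spinal cord. In bulk samples fewer cells of a type and less RNA per cell cannot be told apart, and this holds for every value that follows.

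Homeodomain genes held many of the differences. Homeodomain proteins bind DNA through a fold of 60 residues and include most of the factors that give neural tube cells their position. The group was found by sequence alone. A gene entered when its translated coding sequence held the invariant tryptophan, phenylalanine, asparagine and arginine of the recognition helix in their spacing. At least 47 residues had to come before the tryptophan, which leaves room for a domain. The start of a domain was not itself looked for. The group also took in the titin gene Ttn, a very long gene that encodes no homeodomain factor and was not called. The group had 223 genes, of which 130 were tested and 83 called, 30 higher in brain and 53 in spinal cord. All but 1 of the 83, Irx2, were kept without spinal cord replicate 3. A gene that passes the filter through 1 region alone is more readily called, so levels were also taken into account. Where the mean reached 0.7 CPM in both regions, 24 of 70 homeodomain genes were called (34.3%), against 1140 of 16560 of all genes (6.88%). Among genes under 0.7 CPM in 1 region, 59 of 60 homeodomain genes (98.3%) and 361 of 970 of all genes (37.2%) were called. Apart from the Hox genes, 52 of 99 tested homeodomain genes were called, 30 in brain and 22 in spinal cord.

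The residue at position 50 of the domain faces the DNA and takes part in base choice. Of 82 tested genes with glutamine there, the most common residue, 71 were called, 23 higher in brain and 48 in spinal cord. Of 8 tested genes with lysine there, 4 were called, Otx1, Otx2, Six2 and Six3, all higher in brain. The pattern placed Mdga2 among the 8 and Lonrf1 among the 82, which are not homeodomain factors and were not called. The 71 include all called Hox genes, most of which passed the filter through spinal cord alone. Many homeodomains with glutamine at this residue bind the core TAATTA, which is its own reverse complement and reads alike on both strands. The core was looked for in the 250 bases upstream of each RefSeq start on GRCm38.p6. It was found in 1590 of 32851 promoters (4.84%) and in 355 of 14390 promoters of tested genes (2.47%). Among promoters of called homeodomain genes, 3 of 29 in the brain-higher group (10.3%) and 3 of 37 in the spinal cord-higher group (8.11%) held it. A promoter was found for 22 of the 30 and 34 of the 53 genes. The shares rest on 3 promoters each and are given as a description. Alternative starts of a gene were counted as separate promoters. The 3 in the brain-higher group are those of Otx2, at alternative starts, and of Msx2. The 3 in the spinal cord-higher group are those of Hoxd11, at alternative starts, and of Uncx. For each of these 4 genes 1 promoter is shown to let the sequence be read beside the levels. The core is in capitals, 5′ to 3′ on the strand of the gene, ending 1 base before the start. Otx2 and Msx2 were higher in brain, and Hoxd11 and Uncx in spinal cord.
Otx2, chr14:48665110-48665359, minus strand: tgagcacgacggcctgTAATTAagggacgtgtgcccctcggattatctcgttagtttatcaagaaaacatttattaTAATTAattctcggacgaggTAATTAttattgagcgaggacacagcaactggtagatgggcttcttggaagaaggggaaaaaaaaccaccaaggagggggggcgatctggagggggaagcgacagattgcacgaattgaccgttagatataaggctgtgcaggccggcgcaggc
Msx2, chr13:53472781-53473030, minus strand: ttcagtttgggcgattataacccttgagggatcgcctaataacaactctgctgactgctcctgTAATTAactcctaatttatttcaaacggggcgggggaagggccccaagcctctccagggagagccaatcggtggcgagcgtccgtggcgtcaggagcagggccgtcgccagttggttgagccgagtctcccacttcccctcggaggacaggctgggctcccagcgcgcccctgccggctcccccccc
Hoxd11, chr2:74682073-74682322, plus strand: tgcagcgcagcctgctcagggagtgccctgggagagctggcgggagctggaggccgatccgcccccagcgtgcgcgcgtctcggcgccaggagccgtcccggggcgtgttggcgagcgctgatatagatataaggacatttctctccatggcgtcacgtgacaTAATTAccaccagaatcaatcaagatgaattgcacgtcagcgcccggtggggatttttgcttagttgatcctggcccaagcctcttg
Uncx, chr5:139543648-139543897, plus strand: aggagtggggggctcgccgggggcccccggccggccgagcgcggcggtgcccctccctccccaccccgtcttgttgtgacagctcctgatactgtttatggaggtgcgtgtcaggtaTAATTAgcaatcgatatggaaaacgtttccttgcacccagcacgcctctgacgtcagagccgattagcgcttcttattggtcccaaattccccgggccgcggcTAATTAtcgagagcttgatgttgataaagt

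In the Otx2 promoter shown, the core began at -234, -174 and -154 from the start. In the other promoters shown it began at -187 in Msx2, at -87 in Hoxd11 and at -133 and -30 in Uncx. Otx2, a factor of the anterior neural plate and later of the choroid plexus, was at 27.2, 12.96 and 11.96 CPM in brain and 0, 0.0445 and 0 CPM in spinal cord (5.02 ± 0.32, limma adjusted p = 4.80e-05). Msx2, made by dorsal midline and skull mesenchyme, was at 2.33, 3.43 and 3.70 CPM in brain and 0.834, 0.711 and 1.18 CPM in spinal cord (1.37 ± 0.25). Uncx, made by spinal interneurons and in the somites, was at 6.25, 5.78 and 7.25 CPM in spinal cord and 1.04, 1.41 and 1.23 CPM in brain (-2.003 ± 0.20). Hoxd11 was at 9.11, 6.76 and 13.498 CPM in spinal cord and 0.190, 0 and 0 CPM in brain (-4.16 ± 0.29). All 4 genes were called with and without spinal cord replicate 3. A match to the letters is no evidence that a factor binds there.

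**Figure D2:**
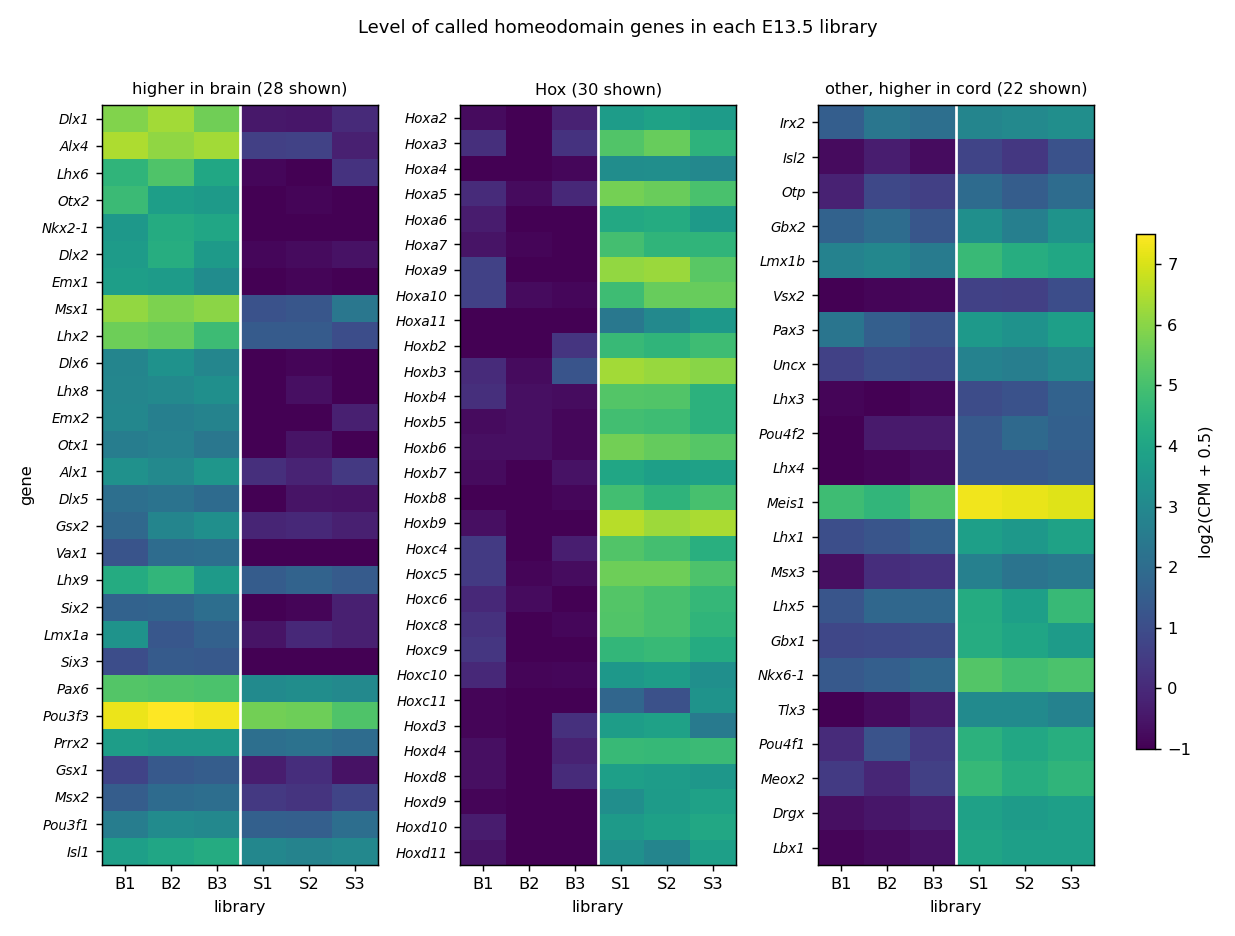
Level of called homeodomain genes (rows) in each E13.5 library (columns, brain B1 to B3 and spinal cord S1 to S3), coloured by log2(CPM + 0.5). The left panel holds 28 of the 30 genes higher in brain, the middle panel 30 of the 31 Hox genes and the right panel the other 22 genes higher in spinal cord. The white line separates the regions.

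Most tested genes of the ventral forebrain list were higher in brain. This list holds factors of the ganglionic eminences, where GABAergic neurons and the first forebrain oligodendrocyte precursors arise. Over all tested genes 8.56% were called, the share to set beside the counts of this and the later lists. The lists were chosen with earlier results of these data known, so their counts are a description and no test of an excess over that share. Of the 25 genes of the ventral forebrain list 23 were tested, 18 were called higher in brain and 2 (Ebf1 and Otp) in spinal cord. The median difference was 2.497, and all 20 calls stood without spinal cord replicate 3. The largest difference of all genes was that of Dlx6os1 (ENSMUSG00000090063, chr6:6820189-6871592), a noncoding RNA of the Dlx5 and Dlx6 locus. It was measured at 146, 189 and 122.9 CPM in brain and 0.179, 0.0889 and 0 CPM in spinal cord, a difference of 8.01 ± 0.21 (limma adjusted p = 1.06e-06). Dlx1 (ENSMUSG00000041911, chr2:71528113-71533981), which drives the GABAergic interneuron fate, was at 59.2, 79.1 and 50.4 CPM in brain and 0.238, 0.222 and 0.506 CPM in spinal cord (6.26 ± 0.23). Its antisense gene Dlx1as was at 21.9, 30.4 and 25.8 CPM in brain and was listed at 0 in the 3 spinal cord libraries, at least 51.4-fold higher in brain. The floor used here is the CPM that 3 reads give in the shallowest library of the lower group. In these 3 genes each brain library was far above each spinal cord library.

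Nkx2-1 (ENSMUSG00000001496, chr12:56531958-56536908), the factor of the medial ganglionic eminence and preoptic area, was at 11.2, 18.2 and 15.7 CPM in brain and at 0 in all spinal cord libraries, at least 29.6-fold higher in brain. Lhx6, made by interneurons that leave the medial eminence, was at 23.2, 34.8 and 16.2 CPM in brain and 0.0596, 0 and 0.675 CPM in spinal cord (5.13 ± 0.39). No brain library overlapped a spinal cord library in any of these genes. Reads of genes that lie antisense to one another, such as Dlx1 and Dlx1as, cannot be assigned with certainty, since the strand setting used in counting is not given in the sources used here.

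The dorsal and pan-forebrain list had 29 genes, of which 26 were tested, 20 called higher in brain and 1 (Gbx2) in spinal cord, with a median difference of 2.64. Of the 21 calls 18 were kept without spinal cord replicate 3, and those of Neurod2, Nr2f1 and Bcl11b were not. Eomes (ENSMUSG00000032446, chr9:118478212-118486132), the mark of cortical intermediate progenitors, was at 46.4, 43.4 and 29.7 CPM in brain and 0.119, 0.0889 and 0 CPM in spinal cord (6.13 ± 0.23). Tbr1, made by early-born cortical glutamatergic neurons, differed by 4.78 ± 0.20, from 28.1, 25.3 and 19.8 CPM in brain and 0.417, 0.445 and 0.337 CPM in spinal cord. RNAs known from dorsal forebrain neurons and their progenitors were thus present in the sorted brain libraries at this age. Bulk values do not show which cells held them. Lhx2, a selector gene of the cortex, was at 48.5, 44.6 and 28.0 CPM in brain and 2.20, 2.22 and 1.52 CPM in spinal cord (4.02 ± 0.24), and Pax6, a factor of dorsal radial glia, at 37.3, 35.4 and 33.3 CPM in brain and 7.86, 8.45 and 7.59 CPM in spinal cord (2.08 ± 0.13).

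Among 56 pairs of a tested gene not annotated as protein coding and the tested gene whose name it carries with the ending as, os or ot, the noncoding gene was called in 16, both genes were called in 14, and in these 14 the direction was the same. In all 14 but that of Sox2ot the noncoding gene had a mean under 0.7 CPM in 1 region. Over all tested genes 8.56% were called, and 37.2% of those under 0.7 CPM in 1 region. Sox2ot had a mean of 85.7 CPM in brain and 18.3 CPM in spinal cord (2.28), close to its partner Sox2. The pairs higher in brain also included Six3os1, Emx2os and Dmrta2os, and those higher in spinal cord Hoxa11os, Hoxb3os, Hoxb5os, Hoxd3os1, Lhx1os and Tbx3os1. Members of a pair overlap or lie close together and may share reads.

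Hox genes were almost limited to spinal cord. They sit in 4 clusters, A to D, and the order of genes in a cluster follows the order of their expression along the body, so that groups 1 to 4 mark the hindbrain and neck, and groups 10 to 13 the lumbar and tail levels. Of 39 Hox genes 31 were tested. All 31 tested were called higher in spinal cord, and the other 8 reached a mean of at most 1.36 CPM in any region. All but Hoxb3 had a brain mean under 0.7 CPM and so passed the filter through spinal cord, where they are high, and among all 509 genes of that kind 222 (43.6%) were called higher in spinal cord. The count of 31 is therefore a description. The largest difference was -7.30, in Hoxb9, and the highest brain mean of a tested Hox gene was 0.811 CPM, in Hoxb3. Hoxb9 (ENSMUSG00000020875, chr11:96271457-96276595) was at 94.6, 76.0 and 85.2 CPM in spinal cord and 0.142, 0 and 0 CPM in brain (-7.30 ± 0.19, limma adjusted p = 1.06e-06). Hoxa11 was at 4.82, 7.47 and 11.1 CPM in spinal cord and listed at 0 in all 3 brain libraries, at least 48.5-fold higher in spinal cord. Within a cluster neighbouring genes overlap, as Hoxc5 does with Hoxc10, and reads may be shared.

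Summed over a cluster, spinal cord libraries held 206 to 286 CPM of HoxA, 305 to 364 of HoxB, 142 to 197 of HoxC and 83.1 to 91.3 of HoxD genes. The corresponding highest sums in brain were 3.80, 3.00, 4.13 and 1.56 CPM. Brain was not free of Hox reads, and over all 39 genes its sums were 10.4, 0.878 and 6.81 CPM against 905, 873 and 745 CPM in spinal cord. The sum was lowest in brain replicate 2 and highest in replicate 1. The 3 spinal cord pools also differed along the axis. Groups 10 to 13 summed to 70.2, 88.5 and 113 CPM in replicates 1 to 3, whereas groups 1 to 4 lay between 209 and 276 CPM and groups 5 to 9 between 423 and 558 CPM, both lowest in replicate 3. Hoxc11 was at 2.98, 1.64 and 9.79 CPM in these pools and Hoxd12, not tested for low level, at 0.953, 0.267 and 2.87 CPM. Spinal cord replicate 3 thus held more of the most caudal Hox RNA than the other 2 pools, and without it all 31 genes were still called.

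Beyond Hox, 25 of 37 tested genes of the spinal cord domain list were called, 18 higher in spinal cord and 7 in brain, out of 52 members. The list holds factors that divide the ventricular zone and its early neurons into dorsal and ventral domains. All 25 calls held without spinal cord replicate 3, and the median difference was -1.17. Skor1 (ENSMUSG00000022245, chr9:63138170-63148961), a corepressor of dorsal interneurons, was at 29.5, 22.7 and 37.3 CPM in spinal cord and 0.142, 0.176 and 0.912 CPM in brain (-5.13 ± 0.34). Pax8, a factor of inhibitory interneurons, was at 20.1, 18.2 and 23.3 CPM in spinal cord and 0, 0 and 0.804 CPM in brain (-4.93 ± 0.37). Lbx1 (ENSMUSG00000025216, chr19:45232684-45235812), which specifies dorsal association interneurons, was at 15.01, 13.4 and 13.3 CPM in spinal cord and 0.0475, 0.0878 and 0.161 CPM in brain (-4.59 ± 0.20). In Skor1 and Pax8 brain replicate 3 stood above the other 2 brain libraries, though far below each spinal cord library.

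Pax2, which acts with Pax8 in the same neurons, differed by -4.29 ± 0.25, from 10.4, 7.91 and 13.2 CPM in spinal cord and 0, 0 and 0.161 CPM in brain. Nkx6-1, a factor of the ventral progenitor domains including the motor neuron domain, was at 36.5, 30.1 and 33.4 CPM in spinal cord and 2.09, 2.503 and 3.06 CPM in brain (-3.48 ± 0.18). Meis1, a Hox cofactor, was at 28.7, 23.7 and 35.2 CPM in brain and 157, 149.6 and 135 CPM in spinal cord (-2.33 ± 0.16). Of the 7 genes of this list that were higher in brain, Olig2 is a lineage factor treated below, and others, such as Neurog2, Isl1, Lhx9 and Msx1, are also made in forebrain or head mesenchyme. The list therefore did not move as 1 block.

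Some transcription factors known from mesenchyme, which form no list of their own, also differed. Alx4 (ENSMUSG00000040310, chr2:93642384-93681339), with Alx1 a factor of the cranial and facial mesenchyme derived from neural crest, was at 86.8, 67.3 and 78.6 CPM in brain and 1.01, 1.11 and 0.337 CPM in spinal cord (5.94 ± 0.27, limma adjusted p = 9.81e-06). Alx1 was at 9.41, 7.42 and 10.5 CPM in brain and 0.596, 0.400 and 0.844 CPM in spinal cord (3.12 ± 0.24). Msx1 (ENSMUSG00000048450, chr5:37820485-37824583), made in the dorsal midline and in skull mesenchyme, was at 69.8, 56.0 and 64.4 CPM in brain and 1.73, 1.91 and 4.72 CPM in spinal cord (4.39 ± 0.31). In all 3 genes each brain library exceeded each spinal cord library. Tbx15, a factor of craniofacial and limb mesenchyme, was at 46.3, 33.8 and 32.7 CPM in brain and 3.10, 7.201 and 4.22 CPM in spinal cord (2.89 ± 0.28), and Tbx18 (ENSMUSG00000032419, chr9:87702800-87731260), made in head mesenchyme and mural cells, at 203, 152 and 162 CPM in brain and 55.3, 59.9 and 39.6 CPM in spinal cord (1.74 ± 0.18). Six2 and Prrx2 differed by 2.54 ± 0.27 and 1.48 ± 0.17.

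Other factors known from mesenchyme were higher in spinal cord. Meox2 (ENSMUSG00000036144, chr12:37108540-37179534), a somite factor, was at 25.7, 19.3 and 23.3 CPM in spinal cord and 0.855, 0.439 and 1.02 CPM in brain (-4.21 ± 0.24). Foxc2, a factor of paraxial mesoderm and meninges, was at 46.9, 64.4 and 62.8 CPM in spinal cord and 15.8, 14.7 and 14.3 CPM in brain (-1.91 ± 0.15). Foxf1, which acts in the mesenchyme of the trunk, was at 2.32, 3.24 and 7.09 CPM in spinal cord and at 0 in the 3 brain libraries. Myocd, a coactivator of smooth muscle genes, was at 25.4, 21.9 and 15.02 CPM in spinal cord and 0.333, 0.307 and 0.268 CPM in brain (-4.70 ± 0.23), and the collagen genes Col8a1 and Col15a1 differed by -4.60 ± 0.25 and -4.30 ± 0.26. Igfbp5, an insulin-like growth factor binding protein, was at 1107, 755 and 864 CPM in spinal cord and 46.8, 20.1 and 36.4 CPM in brain (-4.77 ± 0.30). Not every mesenchymal factor was called. Prrx1 (-0.16), Foxc1 (-0.26) and Foxd1 (-0.19) overlapped between the regions. Twist1 (-0.74, limma adjusted p = 0.0282) did not overlap, was higher in spinal cord and missed only the 2-fold limit.

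The vascular and leptomeningeal list holds 28 genes of the fibroblast-like cells of meninges and vessels. All were tested and 9 called, 1 higher in brain (Tbx18) and 8 in spinal cord, with a median difference of -0.54. All 9 calls were kept without spinal cord replicate 3. Their summed level was high in both regions, 10204 to 14948 CPM in brain and 18084 to 20327 CPM in spinal cord. Aldh1a2 (ENSMUSG00000013584, chr9:71215789-71296243), which makes retinoic acid in meninges and somites, was at 269.8, 280.2 and 283 CPM in spinal cord and 40.2, 29.9 and 45.4 CPM in brain (-2.85 ± 0.16). The GABA transporter gene Slc6a13, made by leptomeningeal cells, was at 309.8, 376 and 326 CPM in spinal cord and 108, 67.2 and 102 CPM in brain (-1.89 ± 0.20), and the growth factor gene Igf2 at 558, 647 and 864 CPM in spinal cord and 279, 222 and 302 CPM in brain (-1.35 ± 0.22). RNA of these genes was thus abundant in the sorted libraries of both regions, and its sum was higher in each spinal cord library than in each brain library. Col3a1, not called, made a large part of the sum, with means of 4576 CPM in brain and 6228 CPM in spinal cord. Single genes did not all follow the sum, since 19 were not called, and Tbx18 and the uncalled Lum were higher in each brain library.

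Among 13 tested of 16 pericyte and smooth muscle genes, 4 were higher in spinal cord (Rgs5, Acta2, Kcnj8 and Myh11) and 2 in brain (Cspg4 and Mcam), with a median of -0.45. Rgs5, a pericyte marker, was at 62.6, 52.3 and 56.2 CPM in spinal cord and 6.70, 5.14 and 7.62 CPM in brain (-3.05 ± 0.17), and Acta2, smooth muscle actin, at 27.9, 25.7 and 41.0 CPM in spinal cord and 4.09, 2.77 and 4.40 CPM in brain (-2.91 ± 0.24). Of 12 tested of 15 endothelial genes 4 were called, Tek, Cdh5 and Emcn in spinal cord and Kdr in brain (1.23 ± 0.18), with sums of 62.6 to 104 CPM in brain and 130 to 165 CPM in spinal cord. Of 10 tested of 15 microglia and macrophage genes 3 were called, Mrc1, Pf4 and Csf1r, all in spinal cord, and the sums were 13.7 to 17.5 CPM in brain and 31.2 to 37.8 CPM in spinal cord. None of 10 tested of 12 erythroid genes was called by limma, 0 had an unadjusted p under 0.05, and edgeR, voom and DESeq2 also called 0. Choroid plexus genes went the other way, since 7 of 9 tested of 12 were higher in brain. Among these Ttr, the transthyretin secreted by choroid plexus, was at 267, 10.1 and 36.2 CPM in brain and 0.0596, 0.133 and 0 CPM in spinal cord, with brain replicate 1 far above the other 2. The sums of the choroid plexus list were 649, 269 and 308 CPM in brain and 140 to 201 CPM in spinal cord. Enpp2, not called, made most of the spinal cord sum. It was at 188, 177 and 117 CPM in spinal cord and 195, 164 and 157 CPM in brain. The 7 called genes included Otx2 and Msx1, whose values are given above.

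Muscle and cartilage genes set spinal cord replicate 3 apart once more. Their sums were 789, 709 and 1165 CPM in spinal cord and 315 to 400 CPM in brain. Of 14 tested of 24 members, 6 were called in spinal cord and 1 (Sox5) in brain, and all 7 calls stood without spinal cord replicate 3. The cartilage collagen gene Col2a1 was at 148, 131 and 544 CPM in spinal cord and 89.3, 60.9 and 64.1 CPM in brain and was not called (-1.63 ± 0.49), but was without spinal cord replicate 1 (-1.91, limma adjusted p = 0.0442) or 2 (-2.003, adjusted p = 0.0351). The titin gene Ttn of striated muscle was at 12.2, 23.6 and 107 CPM in spinal cord and 12.8, 1.89 and 1.61 CPM in brain, so that its spinal cord values spanned a wide range and overlapped those of brain. It was not called with all 6 libraries, and was without spinal cord replicate 3 (-2.11, limma adjusted p = 0.039), without spinal cord replicate 1 (-3.65, 0.0294) or without brain replicate 1 (-3.83, 0.0247). Whether muscle and cartilage RNA has a part in the other spinal cord results was not tested.

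**Figure D3:**
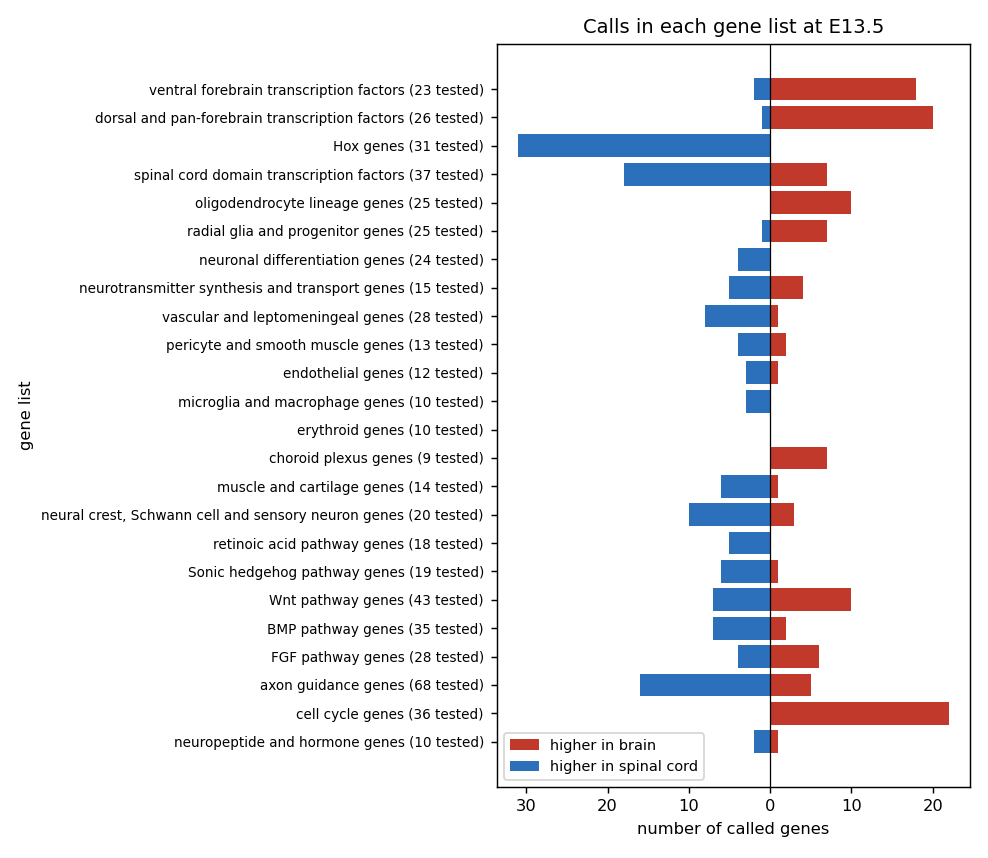
Number of genes called at E13.5 in each gene list (rows, with the number tested), to the right for genes higher in brain and to the left for genes higher in spinal cord. Forebrain factors and cell cycle genes lie to the right, Hox genes wholly to the left, and the Wnt, FGF and neurotransmitter lists on both sides.

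Of the oligodendrocyte lineage genes, all 25 were tested and 10 called, each higher in brain, with a median difference of 0.79. The 10 were kept without spinal cord replicate 3, when 2 more were called, 1 in each direction. These were Matn4, a matrix protein gene, higher in brain (1.18, limma adjusted p = 0.000903), and Vcan, the gene for the proteoglycan versican, higher in spinal cord (-1.12, adjusted p = 0.00693). With all 6 libraries Vcan was at 3159.6, 2097 and 1537 CPM in spinal cord and 1303, 1107 and 1145 CPM in brain, so that the groups did not overlap, but it was not called (-0.87 ± 0.37, adjusted p = 0.139). Olig2, the factor without which oligodendrocyte precursors do not form, was at 40.4, 98.2 and 91.5 CPM in brain and 19.5, 32.5 and 18.4 CPM in spinal cord (1.63 ± 0.35, limma adjusted p = 0.0148). Olig1 was at 68.6, 165 and 148 CPM in brain and 33.3, 61.0 and 42.9 CPM in spinal cord (1.41 ± 0.34), and Cspg4, the gene for the NG2 proteoglycan of these precursors, at 80.1, 140.4 and 157 CPM in brain and 46.9, 62.8 and 60.9 CPM in spinal cord (1.10 ± 0.25). In the 3 genes brain replicate 1 was the lowest of the brain libraries, though still above every spinal cord library. Without brain replicate 2 the limma adjusted p was 0.0732 for Olig2, 0.104 for Olig1 and 0.0893 for Cspg4. Without brain replicate 3 it was 0.0668, 0.0965 and 0.0723, and without spinal cord replicate 1 it was 0.065 for Olig1 and 0.0547 for Cspg4, so these calls rest on few libraries. Sox10, which follows Olig2 in the lineage, was not called (0.79 ± 0.29, adjusted p = 0.0988), but was without brain replicate 1 (1.14, adjusted p = 0.0103). Nkx2-2, a ventral factor, differed by 0.05 ± 0.42 and was not called.

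Sox2 (ENSMUSG00000074637, chr3:34650405-34652461), a factor of neural stem cells, was at 80.4, 116 and 99.1 CPM in brain and 24.1, 24.4 and 22.6 CPM in spinal cord (2.02 ± 0.15, limma adjusted p = 1.00e-04). Sox9, needed for the switch from neurons to glia, was at 29.6, 57.7 and 56.8 CPM in brain and 12.4, 13.6 and 19.9 CPM in spinal cord (1.58 ± 0.28). Of 25 radial glia and progenitor genes, all tested, 7 were called in brain and 1 (Aldh1l1) in spinal cord, with a median of 0.79. Without spinal cord replicate 3 this count rose to 12 in brain and 1 in spinal cord. Sox1, a factor of neural progenitors, was at 30.7, 44.4 and 36.5 CPM in brain and 2.86, 2.89 and 2.02 CPM in spinal cord (3.61 ± 0.20). Over the lineage list, brain replicate 1 lay below the mean of brain replicates 2 and 3 by a median of -0.78 on the log2 scale, against -0.01 for all genes, and over the choroid plexus genes above it by 0.97.

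Cell cycle genes formed the list with the most calls in 1 direction among those that are not regional factors. All 36 were tested and 22 were called, each higher in brain, with a median difference of 1.07. Of these 21 were kept without spinal cord replicate 3, when 26 were called and Cenpe was not. Summed over the list the 3 brain libraries held 4814 to 4964 CPM and the 3 spinal cord libraries 2308 to 2609 CPM. Ccnd2 (ENSMUSG00000000184, chr6:127125162-127152193), a D-type cyclin that drives entry into the cycle, was at 329, 320.0 and 237 CPM in brain and 79.9, 72.9 and 85.4 CPM in spinal cord (1.88 ± 0.16, limma adjusted p = 2.11e-04), and Ccnd1 at 118, 169 and 169.5 CPM in brain and 41.2, 50.0 and 62.6 CPM in spinal cord (1.56 ± 0.20). Rrm2, a subunit of the reductase that makes deoxyribonucleotides for DNA synthesis, was at 101, 116 and 106 CPM in brain and 30.7, 32.2 and 36.8 CPM in spinal cord (1.68 ± 0.12). Ccna2, the cyclin of S phase and G2, was at 149.8, 173 and 157 CPM in brain and 53.8, 61.9 and 66.8 CPM in spinal cord (1.39 ± 0.13). The calls covered genes of S phase (Mcm3, Pcna, Tyms and Cdc6) and of mitosis (Cdk1, Ccnb1, Bub1, Aurkb and Kif11). In each of these genes the groups did not overlap.

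Of 25 neuronal differentiation genes 24 were tested, and the 4 called, Nefl, Nefm, Ina and Nhlh2, were higher in spinal cord, with a median of -0.32. Nefl, the light neurofilament gene, was at 73.8, 63.9 and 124 CPM in spinal cord and 14.4, 14.5 and 20.7 CPM in brain (-2.32 ± 0.25), and its annotation overlaps that of Nefm. Tubb3 and Stmn2, which mark young neurons in general, were at 329 ± 38.9 and 53.5 ± 4.04 CPM (SD, n = 3) in brain and 293 ± 97.2 and 85.8 ± 19.7 CPM in spinal cord and were not called. Tubb3 overlapped between the regions, whereas Stmn2 missed only the 2-fold limit (-0.65 ± 0.17, limma adjusted p = 0.0303). So did Rbfox3, Cntn2 and Myt1l, each also higher in spinal cord. Neuronal RNA was thus present in the sorted libraries of both regions. Genes of transmitter identity split, with 4 called in brain (Slc18a2, Slc17a7, Slc17a8 and Gad1) and 5 in spinal cord (Slc6a5, Slc6a9, Chat, Slc18a3 and Slc5a7) of 15 tested out of 21. The call of Gad1 was lost without spinal cord replicate 3. Slc6a5 (ENSMUSG00000039728, chr7:49910146-49963856), the transporter that loads glycinergic terminals, was at 40.0, 31.8 and 27.0 CPM in spinal cord and 0, 0 and 0.965 CPM in brain (-5.53 ± 0.42). The glial glycine transporter gene Slc6a9, which shares part of its locus with B4galt2, was at 38.7, 39.2 and 42.9 CPM in spinal cord and 14.4, 12.1 and 16.9 CPM in brain (-1.45 ± 0.15), and Chat, which makes acetylcholine in motor neurons, at 1.49, 1.16 and 1.35 CPM in spinal cord and 0.0950, 0.0439 and 0.0536 CPM in brain (-1.70 ± 0.21). The vesicular monoamine transporter gene Slc18a2 was at 15.4, 19.9 and 13.7 CPM in brain and 1.07, 0.889 and 1.86 CPM in spinal cord (3.27 ± 0.26) and the cortical vesicular glutamate transporter gene Slc17a7 at 5.27, 4.13 and 2.25 CPM in brain and 0.0596, 0.178 and 0 CPM in spinal cord (2.87 ± 0.31).

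Genes of neural crest, Schwann cells and sensory neurons were called in 13 of 20 tested of 23, 10 higher in spinal cord and 3 (Dct, Cdh19 and Isl1) in brain, with a median of -0.80. Drgx, a factor of dorsal horn and sensory neurons, was at 13.9, 12.3 and 13.498 CPM in spinal cord and 0.142, 0.220 and 0.322 CPM in brain (-4.24 ± 0.20), and Pou4f1, likewise a sensory factor, at 21.7, 16.4 and 19.4 CPM in spinal cord and 0.523, 1.76 and 0.858 CPM in brain (-3.74 ± 0.30). The peripheral neurofilament gene Prph was at 5.84, 4.89 and 12.8 CPM in the 3 spinal cord libraries, highest in replicate 3, and was under these values in each brain library. Of the 13 calls, that of Tfap2a was not kept without spinal cord replicate 3.

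Signalling genes were counted by pathway, beside a called share of 8.56% over all tested genes. Retinoic acid, a caudalizing signal made by mesoderm and meninges, had 18 tested of 20 genes and 5 called, all higher in spinal cord, with a median of -0.59. The reductase gene Dhrs3, which limits retinoic acid, differed by -2.98 ± 0.19, from 66.9, 80.6 and 86.2 CPM in spinal cord and 11.97, 7.25 and 9.55 CPM in brain. The retinol-binding protein gene Rbp4 was at 1.73, 2.98 and 2.70 CPM in spinal cord and 0.238, 0.220 and 0.483 CPM in brain (-1.86 ± 0.26), and its receptor gene Stra6 at 111, 131 and 121 CPM in spinal cord and 42.7, 32.2 and 36.1 CPM in brain (-1.70 ± 0.14). With Aldh1a2 and the degrading enzyme gene Cyp26b1, the calls took in uptake, synthesis and removal of the signal, and all 5 were kept without spinal cord replicate 3.

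In the Sonic hedgehog list 7 of 19 tested of 21 genes were called, 6 higher in spinal cord and 1 in brain, with a median of -0.13. Scube1 (ENSMUSG00000016763, chr15:83604999-83725021), which helps release the ligand, was at 309.8, 230.3 and 189 CPM in spinal cord and 30.97, 25.9 and 26.5 CPM in brain (-3.08 ± 0.18). Gli1 (ENSMUSG00000025407, chr10:127329882-127341974), a transcription factor that is itself a target of the pathway, was at 82.9, 77.5 and 59.9 CPM in spinal cord and 20.9, 13.48 and 6.49 CPM in brain (-2.52 ± 0.36). The pathway inhibitor gene Hhip, likewise a target, differed by -2.26 ± 0.24. The coreceptor gene Cdon, which the pathway represses, was at 204, 171 and 193 CPM in brain and 46.0, 54.9 and 59.7 CPM in spinal cord and thus higher in brain (1.82 ± 0.14). The other 12 genes tested were not called. Among them the transcription factor gene Gli2 (-0.79 ± 0.17, limma adjusted p = 0.01497) and Sufu (-0.72 ± 0.14, adjusted p = 0.00911), which restrains the Gli factors, missed only the 2-fold limit. The ligand gene Shh itself was low, at 0.998, 0.966 and 1.93 CPM in brain and 0.298, 0.178 and 0.675 CPM in spinal cord (1.02 ± 0.31, adjusted p = 0.0505). Without spinal cord replicate 3 Shh was called higher in brain (1.25, adjusted p = 0.00815) and Scube2 was no longer called, which made 2 calls in brain and 5 in spinal cord.

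FGF genes went in both directions. Of 28 tested of 34, 6 were called in brain and 4 in spinal cord, with a median of 0.12. The 6 in brain were feedback inhibitors and nuclear targets of the pathway, among them Spry1, Spry4, Dusp6 and Etv5. Spry1 was at 48.5, 62.1 and 60.3 CPM in brain and 15.7, 16.8 and 17.9 CPM in spinal cord (1.73 ± 0.14), Etv5 at 53.0, 71.4 and 66.2 CPM in brain and 19.1, 23.6 and 17.5 CPM in spinal cord (1.64 ± 0.16) and Spry4 differed by 1.99 ± 0.24. The 4 in spinal cord were genes of ligands or ligand-like proteins, Fgf1, Fgf9, Fgf10 and Fgf12, at low levels. Of the 10 calls 7 were kept without spinal cord replicate 3, and those of Fgf9, Fgf10 and Fgf12 were not.

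Of 43 tested Wnt pathway genes out of 50, 10 were called in brain and 7 in spinal cord, with a median of -0.02, which became 0.01 when libraries were scaled by their protein-coding reads. Of the 17 calls 15 were kept without spinal cord replicate 3, and those of Wnt3 and Dkk1 were not. Wnt8b, a ligand of the cortical hem, was at 11.1, 3.21 and 5.15 CPM in brain and 0.0596, 0 and 0.337 CPM in spinal cord (3.34 ± 0.42), and Frzb, a secreted antagonist, at 39.5, 31.2 and 30.997 CPM in brain and 10.7, 9.69 and 9.28 CPM in spinal cord (1.72 ± 0.15). Notum, a secreted enzyme that inactivates Wnt proteins, was at 20.2, 17.3 and 14.5 CPM in spinal cord and 1.62, 0.834 and 0.858 CPM in brain (-3.50 ± 0.25), Wnt6 at 25.1, 37.9 and 51.5 CPM in spinal cord and 4.94, 3.65 and 6.70 CPM in brain (-2.77 ± 0.29) and Wnt4 at 38.5, 48.9 and 39.8 CPM in spinal cord and 9.22, 10.6 and 8.63 CPM in brain (-2.10 ± 0.15). Ligands and antagonists were thus found on both sides. In the BMP list 9 of 35 tested of 36 were called, 7 in spinal cord and 2 (Chrdl1 and Id4) in brain, with a median of -0.20, and all 9 were kept without spinal cord replicate 3. The ligand gene Bmp2 was at 9.17, 8.09 and 9.95 CPM in spinal cord and 1.90, 1.54 and 0.965 CPM in brain (-2.31 ± 0.24), the antagonist gene Chrd at 57.6, 53.6 and 45.7 CPM in spinal cord and 20.6, 14.9 and 13.1 CPM in brain (-1.68 ± 0.18), and Id4, a target and a repressor of differentiation, at 53.8, 64.2 and 58.2 CPM in brain and 25.9, 21.6 and 24.3 CPM in spinal cord (1.28 ± 0.13).

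Axon guidance genes leaned to spinal cord, with 16 called there and 5 in brain of 68 tested, a median of -0.37, and all but that of Sema3f kept without spinal cord replicate 3. Epha8 (ENSMUSG00000028661, chr4:136929419-136956816), an ephrin receptor gene, had the largest difference of the list, with 183, 152 and 178 CPM in spinal cord and 3.28, 2.64 and 2.41 CPM in brain (-5.71 ± 0.15). Robo3, which lets commissural axons cross the midline, was at 112, 78.5 and 107 CPM in spinal cord and 9.5003, 7.38 and 11.05 CPM in brain (-3.35 ± 0.19), and the semaphorin gene Sema3c at 135, 116 and 125 CPM in spinal cord and 25.5, 20.1 and 19.3 CPM in brain (-2.52 ± 0.14). Sema3a, a repellent of the same family, was by contrast at 230.2, 184 and 186 CPM in brain and 62.4, 57.4 and 57.7 CPM in spinal cord (1.74 ± 0.13), and the receptor gene Epha5 at 167, 184 and 137 CPM in brain and 49.1, 58.6 and 53.0 CPM in spinal cord (1.59 ± 0.14). Members of the semaphorin and Eph families were therefore divided between the regions. Of 10 tested of 26 neuropeptide and hormone genes, 2 (Penk and Adcyap1) were called in spinal cord and 1 (Gnrh1) in brain.

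The list calls were also set against each of the 6 libraries. Over all lists and the homeodomain group, 264 different genes were called, and 212 of them were called whichever library was left out. Without spinal cord replicate 3, 14 calls were lost, all named above, and in each the difference without that library was 0.76 to 0.98 in size with a limma adjusted p of at most 0.036, so that the 2-fold limit and not the p was missed. A further 23 genes of the lists were called only without that library, 17 higher in brain and 6 in spinal cord. The same 14 were each lost without some other library as well. Among genes named above, those not called without brain replicate 1 were Cenpe, Dkk1, Fgf10, Gad1, Gnrh1, Irx2, Neurod2, Nr2f1, Slc18a3, Tfap2a and Wnt3 (differences of 0.80 to 2.04 in size, limma adjusted p 0.0248 to 0.145). Without brain replicate 2 they were Bcl11b, Cdh19, Dkk1, Fgf9, Fgf10, Gad1, Gnrh1, Mcam, Myh11, Neurod2, Nr2f1, Scube2, Sema3f, Slc18a3 and Tfap2a (0.83 to 2.10, adjusted p 0.022 to 0.158). Without brain replicate 3 they were Cdh19, Dkk1, Fgf10, Fgf12, Gnrh1, Irx2, Mcam, Myh11, Neurod2, Scube2, Slc5a7 and Wnt3 (0.85 to 1.64, adjusted p 0.0375 to 0.134). Without spinal cord replicate 1 they were Dkk1, Fgf10, Ina, Myh11, Penk, Scube2, Tfap2a and Wnt3 (1.00 to 1.40, adjusted p 0.00549 to 0.0745). Without spinal cord replicate 2 they were Fgf9, Fgf10, Gad1, Gnrh1, Irx2, Myh11, Neurod2, Scube2, Tfap2a and Wnt3 (0.98 to 1.53, adjusted p 0.0553 to 0.103). These genes lay near the limits of the call, and the Olig1, Olig2 and Cspg4 values are given above.

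**Figure D4:**
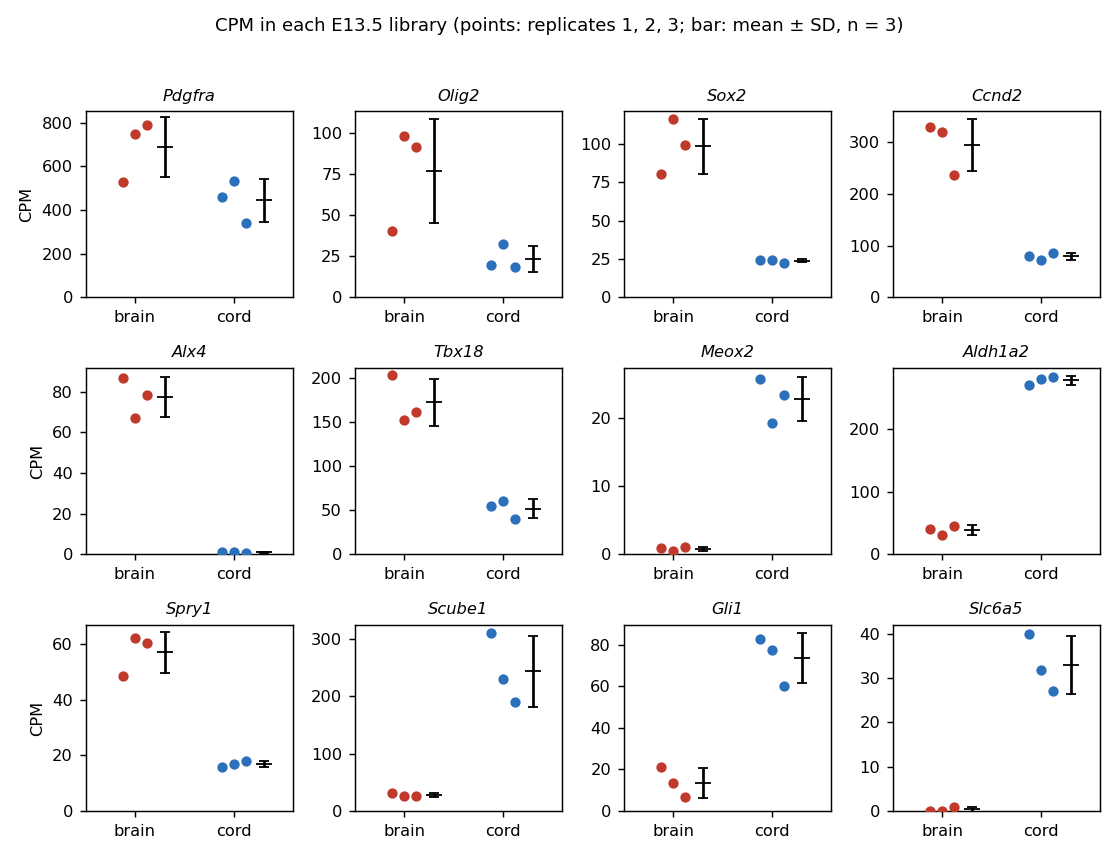
CPM in each of the 6 E13.5 libraries for 12 genes, with the 3 brain libraries in red, the 3 spinal cord libraries in blue, replicates 1 to 3 from left to right, and the mean ± SD (n = 3) as a bar beside them. Each vertical axis starts at 0 and has its own range. The groups overlap in Pdgfra and are apart in the other 11 genes.

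The E13.5 differences were followed to P7 with all 12 libraries. At P7 the tissue was dissociated with papain and not mechanically, so age and dissociation cannot be told apart. Replicates 1 and 2 of each P7 group differed by less (SD of the log2 ratio 0.0594 in brain and 0.062 in spinal cord) than either did from replicate 3 (0.165 to 0.208). The tests that use P7 libraries took the 3 replicates as separate pools, as the methods give them. Whether replicates 1 and 2 are separate pools was not tested. If they are not, these tests understate the spread between pools. The region difference changed with age in 2990 of 18319 genes tested (16.3%), rising in 1220 and falling in 1770. With TMM scaling 2750 were called, 1509 rising and 1241 falling. The median change over all genes was -0.24 with the deposited scaling and -0.07 with TMM. Of the 1501 genes called at E13.5, 218 (14.5%) were called in the same direction at P7 and 95 in the opposite direction. The call and the change share the E13.5 libraries, so these counts are a description.

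Hox genes kept their direction at P7. All 31 were called higher in spinal cord at P7 as well, with differences from -1.16 in Hoxb9 to -6.999 in Hoxd8. The change with age was called in 1112 of all 1501 E13.5 calls (74.1%) and in 20 of the 31 Hox genes, 19 becoming smaller and 1, Hoxd8, larger, and with TMM scaling the change was called in 20 too. The fall was steepest in cluster B, whose sum in spinal cord was 305 to 364 CPM at E13.5 and 51.9 to 53.3 CPM at P7, and in cluster C, at 36.4 to 37.8 CPM at P7. HoxA sums were 152 to 158 CPM at P7, and HoxD sums, at 99.6 to 103 CPM, were above those of E13.5. Hoxb9 had the largest rise of the region difference towards 0, by 6.14 ± 0.22 (limma adjusted p = 4.27e-08), with 0.0110 ± 0.0191 CPM in P7 brain and 0.641 ± 0.0858 CPM in P7 spinal cord (SD, n = 3). Among the other 52 homeodomain genes called at E13.5, 14 were called in the same direction at P7 and 0 in the opposite direction by limma. Lbx1 came to 0 ± 0 CPM in P7 brain and 0.0669 ± 0.0388 CPM in P7 spinal cord, and Dlx1 to 1.30 ± 0.426 CPM in P7 brain and 0.105 ± 0.0673 CPM in P7 spinal cord. Lhx2 kept its difference, at 4.39 on the log2 scale at P7. Of the 22 cell cycle genes, 1 was called in the same direction at P7, and the change was called in 21, against 74.1% of all E13.5 calls. Of the 25 calls of the spinal cord domain list, 3 remained, and of the 20 and 21 calls of the ventral and the dorsal and pan-forebrain lists, 6 and 10. Over all 1501 E13.5 calls the share called in the same direction at P7 was 14.5%.

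**Figure D5:**
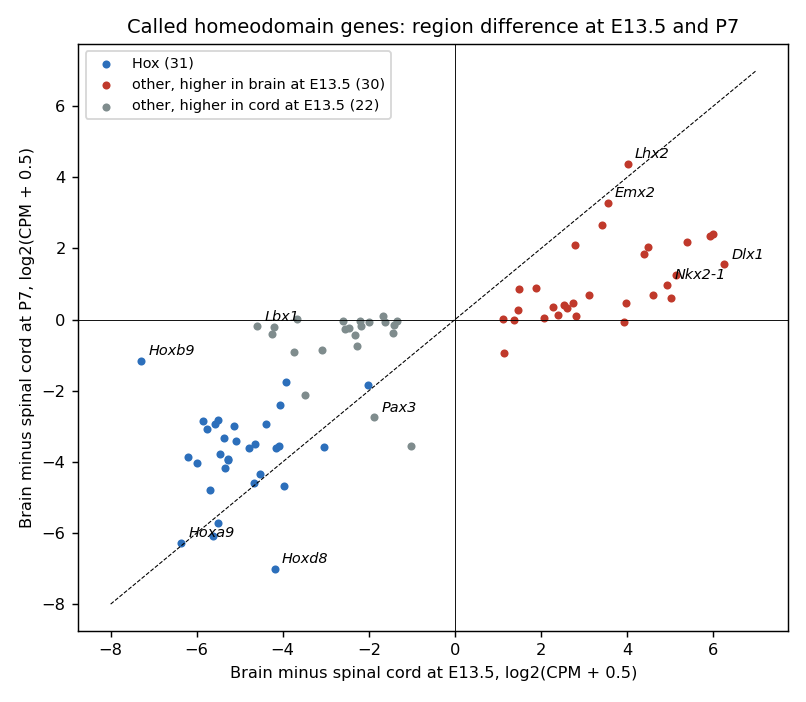
Region difference at P7 (vertical axis) against that at E13.5 (horizontal axis), both brain minus spinal cord in log2(CPM + 0.5), for the 83 homeodomain genes called at E13.5. Blue points are the 31 Hox genes, red points the 30 other genes higher in brain at E13.5 and grey points the 22 others higher in spinal cord. The dashed line marks equal differences. Hox genes stay below 0 at P7, while most grey points lie near 0.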

How the data were processed

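Total RNA-seq libraries of Pdgfra/GFP+ cells were made by the authors with a stranded kit. Per the study's methods, reads were aligned with STAR 2.5.0a to mm10 and assigned by featureCounts 1.5.0-p1 to GENCODE M8 genes. Multi-mapping reads were split into fractions and each count was rounded, and the strand setting is not given in the sources used here. The authors deposited 1 table of CPM values, divided by rescaled library sizes. In 3 columns the sum exceeds what plain CPM can reach, and these deposited values were treated as a signal scaled like the others. At a tolerance of 1e-06, 100.0% of values were whole reads, so counts were recovered for the alternatives. No value column was left out (0 columns not used). Intervals and floors cover counting error only.

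Limma 3.58.1 with an intensity trend was run in R 4.3.3 on log2(CPM + 0.5), for the 6 E13.5 libraries alone and, for the change with age, for all 12. The study used voom, which became an alternative because the design took the unit to be CPM. A gene entered the test at 0.7 CPM in 3 libraries. Calls needed a Benjamini-Hochberg adjusted p under 0.05 and a 2-fold difference. Alternatives were other pseudocounts, filters and scalings, edgeR 4.0.16, limma-voom, DESeq2 1.42.0, treat, a replicate block, equal depth and leaving out each library. On simulated data 200 of 200 genes changed 4-fold were recovered by limma among 17530 at E13.5, and 199 of 200 among 18319 for the change with age. The simulated libraries shared the same spread, unlike spinal cord replicate 3, and no changed gene was near 0 CPM. Recovery of smaller changes or of genes at low levels was not tested. Promoters of 1 chromosome were left out. Symbols and positions came from GENCODE M21, matched for 46574 of 47069 identifiers. Homeodomain genes were found in 58738 translated coding transcripts of that annotation, in place of RefSeq proteins. The pattern also took in some proteins that are not homeodomain factors.

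The members and lists were chosen with earlier results of these data known. Named were the sort marker and lineage factors, the 15 genes with the largest difference in each direction under set conditions, up to 4 called members of each list in each direction and 2 highest uncalled ones, any Hox gene, the 5 genes changing most with age in each direction and up to 5 with the largest excess of reads in spinal cord replicate 3. Genes named outside that rule were chosen after their values were seen. Among them are Alx1, Tbx15, Six2, Prrx1, Prrx2, Foxf1, Foxc1, Foxd1, Twist1, Myocd, Igfbp5, Igf2, Col8a1, Col15a1, Lhx2, Meis1, Nkx6-1, Msx2, Uncx, Stmn2, the noncoding partner genes and the members named only because a count was small. Some genes covered by the rule are not reported here.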

Additional observations from a re-analysis of the deposited data

Results flagged for a closer look

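Genes whose difference between the regions was not the same at the 2 ages stood out by the test of that change itself, made with limma over all 12 libraries. They numbered 2990 of 18319. Among genes called at E13.5, the 5 with the largest change towards brain were Hoxb9, Ptgds, Lbx1, Lamp5 and Mrc1, and the 5 with the largest change towards spinal cord were Ermn, Eomes, Dlx6os1, Galnt6 and Dlx1as.

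Hoxb9 changed by 6.14 on the log2 scale and Lbx1 by 4.41, both with high spinal cord values at E13.5 and values under 1 CPM in each region at P7. Ptgds, the prostaglandin D synthase gene of meninges and glia, changed by 4.79, from 7.56, 12.9 and 11.5 CPM in spinal cord and 3.99, 1.05 and 3.27 CPM in brain at E13.5 to 138 ± 6.42 CPM in P7 brain and 22.8 ± 20.6 CPM in P7 spinal cord. Without spinal cord replicate 2 its E13.5 difference had a limma adjusted p of 0.0521. Lamp5, a neuronal membrane protein gene, changed by 4.35, from 29.5, 25.0 and 30.2 CPM in spinal cord and 0.0950, 0.307 and 1.45 CPM in brain to 0.255 ± 0.108 CPM in P7 brain and 0.588 ± 0.171 CPM in P7 spinal cord. Mrc1, the mannose receptor gene of border macrophages, changed by 4.33, from 13.9, 9.07 and 9.62 CPM in spinal cord and 3.80, 0.922 and 2.15 CPM in brain to 4.57 ± 0.302 CPM in P7 brain and 0.613 ± 0.114 CPM in P7 spinal cord. In these genes the direction at E13.5 was towards spinal cord.

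Ermn, a gene of myelinating oligodendrocytes, changed by -6.52, from 1.62, 2.11 and 2.36 CPM in brain and 0.298, 0.0889 and 0.844 CPM in spinal cord at E13.5 to 4.09 ± 1.49 CPM in P7 brain and 139.8 ± 14.996 CPM in P7 spinal cord. Its E13.5 call was lost without brain replicate 2 (limma adjusted p = 0.0632) or 3 (adjusted p = 0.0595). Galnt6, a glycosyltransferase gene, changed by -5.84, from 3.66, 7.91 and 8.85 CPM in brain and 0.238, 0.356 and 0 CPM in spinal cord to 3.81 ± 1.02 CPM in P7 brain and 23.8 ± 4.97 CPM in P7 spinal cord. Eomes changed by -5.94, Dlx6os1 by -5.86 and Dlx1as by -5.34. At P7 Eomes came to 0.0797 ± 0.0193 CPM in P7 brain and 0.00900 ± 0.0156 CPM in P7 spinal cord and Dlx6os1 to 2.03 ± 0.351 CPM in P7 brain and 0.0694 ± 0.0783 CPM in P7 spinal cord.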

How the results depend on the processing

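The number of genes called at E13.5 was most affected by the threshold. When a difference had to exceed 2-fold by limma's treat test in place of a limit on the estimate, 309 genes were called, 99 higher in brain and 210 in spinal cord. Under the other alternatives the count lay between 1166 and 1806. Leaving out each library in turn gave 1166 to 1767 genes, with 466 to 734 higher in brain and 700 to 1033 in spinal cord, and the lowest count was without brain replicate 2. Of the 1501 calls, edgeR's quasi-likelihood test (1779 calls) shared 1486, limma-voom (1779) 1473 and DESeq2 (1806) 1472. The change with age was called for 2796 to 3817 genes without 1 library, 1128 to 1414 rising and 1662 to 2403 falling. Of 157 named genes that were called, 89 were called under every alternative, treat included. Ttr was not called by limma-voom. No called value turned its sign.

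The replicate number was tried as a block. Deviations of libraries with the same number correlated by 0.33, 0.083 and 0.43, so the numbers did not pair the samples by the rule set for all 3. With the replicate block 1583 genes were called at E13.5, among them all 1501, and 3108 for the change with age. Depth limits genes near 0, since 3 reads correspond to 0.132 to 0.506 CPM, highest in spinal cord replicate 3.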

Other observations

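Genes that make no protein also differed between the regions. Of 319 tested lincRNA genes 39 were called (12.2%), 15 higher in brain and 24 in spinal cord, and 34 of these were kept without spinal cord replicate 3. Of 1051 tested genes that the annotation marks as transcripts still to be checked by experiment, 82 were called (7.80%), 12 in brain and 70 in spinal cord, with 69 kept. Processed pseudogenes went the other way, with 26 called of 1025 (2.54%), 21 in brain and 5 in spinal cord, and 23 kept. Pseudogenes share sequence with their parent genes, so reads may have been shared between them.

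Single libraries also stood apart within some lists. Relative to the mean of the other 2 brain libraries, brain replicate 3 had a median shift of 0.83 on the log2 scale over the endothelial genes and -0.43 over the dorsal and pan-forebrain factors, against -0.01 over all genes. Relative to the other 2 spinal cord libraries, spinal cord replicate 3 had a median shift of 1.15 over the muscle and cartilage genes, 0.81 over the erythroid genes and -0.26 over the Hox genes, against -0.04 over all genes.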
